A study of Sus scrofa with 8 samples.

Results

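The cone phototransduction genes are 8 genes chosen by name for their known roles: OPN1SW, ARR3, PDE6C, PDE6H, GNAT2, CNGA3, CNGB3 and GRK7. They are 8 of the 35683 genes counted by single-nucleus RNA sequencing of pig retina, and all 8 were listed by symbol. Their unique molecular identifiers (UMIs, 1 per captured transcript) were summed per retina in cone nuclei and in the nuclei of other retinal classes. The 8 retinas came from 6 female Yucatan minipigs a few months old. All animals received Vitrase, a hyaluronidase, in both eyes before dosing, and weekly methylprednisolone. AAV animals then received AAV2.7m8/CAG-GFP at 5e11 vg per eye in both eyes, and vehicle animals received vehicle alone. AAV2.7m8 is a capsid variant of AAV2, and CAG is a promoter active in most cell types, so that the transgene was not restricted to cones. At week 2, both eyes of 1 AAV animal and both eyes of 1 vehicle animal were sequenced. At week 4, 1 eye each of 2 AAV animals and 2 vehicle animals was sequenced. The labels give each of these 4 groups a batch of its own, so batch and group cannot be told apart.

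Cones are the photoreceptors of daylight and colour vision. In a cone, light-activated opsin turns on transducin, whose alpha subunit GNAT2 releases the phosphodiesterase PDE6C from its inhibitory subunit PDE6H. The enzyme lowers cyclic GMP, and the channel built from CNGA3 and CNGB3 closes. GRK7 phosphorylates the activated opsin and ARR3, cone arrestin, then binds it, which ends the response. OPN1SW is the short-wavelength opsin, made by a minority of cones. Inherited loss of GNAT2, PDE6C, PDE6H, CNGA3 or CNGB3 causes forms of cone blindness.

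The retinas held 388491 barcodes, of which 350537 nuclei were kept, and between 121544835 and 173614051 UMIs per retina. Of the distinct barcodes, 17084 (4.63%) occurred in more than 1 retina. Cone nuclei were gated on RXRG, THRB, CCDC136 and TAFA3, which include none of the 8 genes, so that a single set of nuclei served every gene (the member-free gate). This gate held 969 to 1500 nuclei per retina. A second, wider gate added the other 7 genes and left out the gene being measured (the leave-one-out gate). With all 8 genes the wider gate held 3840 to 4765 nuclei per retina. Of member-free cone nuclei, 89.0% to 95.6% per retina held at least 5 UMIs of the 8 genes. The share was 0.169% to 4.34% of rod nuclei and 0% to 2.05% of Muller nuclei. It was 4.08% to 7.46% of amacrine nuclei, which were deeper, and 12% of the 50 endothelial nuclei of AAV replicate 1 of week 4. The cone label therefore held on genes that the gate did not read. The member-free nuclei were still not an even sample of the wider set, as OPN1SW and CCDC136 show below.

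In the RefSeq annotation of Sscrofa11.1 the 8 genes lie on 7 chromosomes. OPN1SW lies at chr18:19836453-19839425 on the plus strand, and CCDC136, a gate marker, lies 11598 bases away on the opposite strand. ARR3 lies at chrX:56295107-56310507 (plus strand). PDE6C lies at chr14:105010974-105122628 (plus strand), with RBP4 inside its span on the opposite strand. PDE6H lies at chr5:57555448-57582324 (minus strand) and shares 5571 bases with ARHGDIB on the opposite strand. GNAT2 lies at chr4:110512349-110523222 (plus strand) and CNGB3 on the same chromosome at chr4:50112927-50263264 (plus strand). CNGA3 lies at chr3:55872607-55936516 (minus strand). GRK7 lies at chr13:82577604-82630689 (plus strand), and its last 685 bases overlap an uncharacterised gene on the opposite strand. Whether UMIs were counted by strand is not given in the sources used here.

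CRX and OTX2 are photoreceptor homeodomain factors that read the letters TAATCC, so the 250 bases before each annotated gene start were searched for TAATCC on both strands. OPN1SW and PDE6H held a match, which is 2 of the 8 genes, against 1135 of 20667 protein-coding genes (5.49%). Both windows are shown 5′ to 3′ on the gene's strand, with the match in capitals. The OPN1SW window (Sscrofa11.1, chr18:19836285-19836314, plus strand) starts its match 156 bases before the gene. The PDE6H window (chr5:57582351-57582380, minus strand) starts its match 44 bases before the gene. A match is a description of letters and not a measured binding site.
OPN1SW: gcttgaggtctcTAATCCcaaactttgtgc
PDE6H: tcctttttctatTAATCCtcccattggata

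In cone nuclei, the 8 genes spanned a wide range of levels, given as CPM, the UMIs of a gene scaled to a fixed total of UMIs of the gated nuclei (1000000). Under the leave-one-out gate the median over 8 retinas was 3997 CPM for ARR3 and 2633 CPM for CNGB3. It was 1484 CPM for PDE6C, 1249 CPM for GNAT2 and 702 CPM for GRK7. CNGA3 had 456 CPM, PDE6H 188 CPM and OPN1SW 22.5 CPM. Divided by the annotated length of the gene, the level was 260 CPM per kb for ARR3 and 115 CPM per kb for GNAT2, whereas the other 6 genes lay between 7.00 and 17.5 CPM per kb. Of the channel subunits, CNGA3 had 7.13 CPM per kb and CNGB3 had 17.5 CPM per kb. This division is a description and not a corrected level, since a UMI counts a captured transcript and not a stretch of the gene. PDE6C was the steadiest gene over the 8 retinas, with a highest level 1.15 times its lowest, and PDE6H was the most variable, at 1.69 times.

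**Figure D1:**
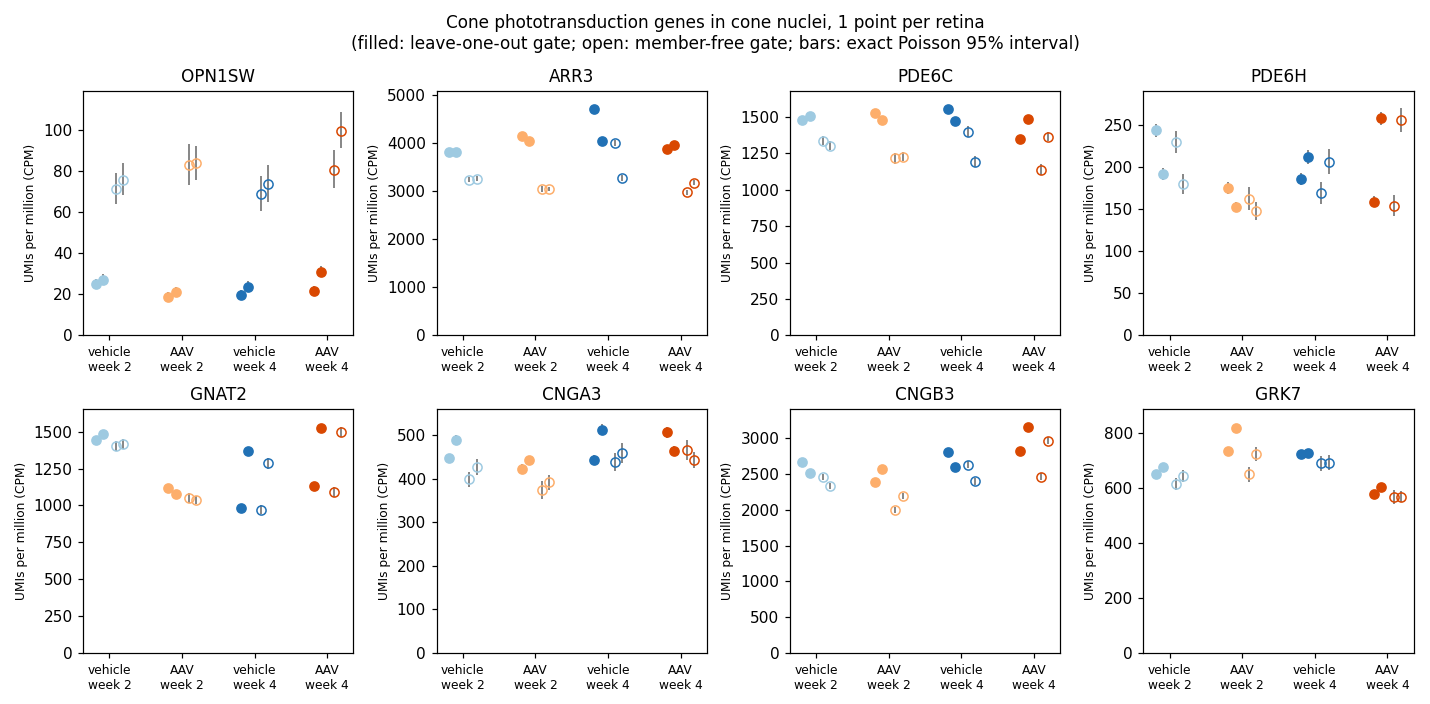
CPM (y axis from 0) of each gene in cone nuclei of the 4 groups, 1 point per retina with its exact Poisson 95% interval, under the leave-one-out gate (filled) and the member-free gate (open). OPN1SW lay at 18.8 to 30.9 CPM under the first gate and at 68.5 to 99.4 CPM under the second. ARR3 lay at 3803 to 4707 CPM under the first and at 2969 to 3988 CPM under the second.

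At the level of single nuclei, CNGB3 was seen in 96.6% to 99.4% of cone nuclei per retina, against 1.17% to 4.07% of rod nuclei. Cone nuclei were deeper, with medians of 2281 to 4244 UMIs against 1456 to 2079 UMIs in rods. After thinning each nucleus to 1000 UMIs, CNGB3 was seen in 86.8% to 92.1% of cone nuclei and 0.539% to 2.86% of rod nuclei, with 301 cone and 4274 rod nuclei too shallow to be thinned. ARR3 had 96.0% to 99.0% of cone nuclei before thinning and 90.4% to 95.01% after it, against 9.38% to 16.4% and 5.06% to 11.2% of rod nuclei. OPN1SW was at the other end, with 4.12% to 7.24% of cone nuclei of the leave-one-out gate before thinning and 1.43% to 2.60% after it, against at most 0.165% of rod nuclei. Under the member-free gate it was seen in 14.6% to 23.6% of cone nuclei before thinning and in 5.49% to 7.81% after it. The gate marker CCDC136 had 1737 to 2875 CPM per retina under the member-free gate, against 535 to 767 CPM under the gate with all 8 genes. THRB, also a gate marker, had 1075 to 1683 CPM against 893 to 1240 CPM. The member-free nuclei were thus richer in OPN1SW and CCDC136 than the wider set.

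The central comparison asked whether the light-response genes of cones changed after AAV. At week 4 none of the 8 genes passed the threshold in cone nuclei under either gate, by edgeR's quasi-likelihood test of 2 AAV against 2 vehicle retinas with Benjamini-Hochberg adjustment over all genes and a threshold of 0.05. At an unadjusted p under 0.05, 1 gene passed under the member-free gate and 0 under the leave-one-out gate. DESeq2, run under the member-free gate only, called 0 as well. Over all genes, 1.42% of 12984 were called under the member-free gate and 1.02% of 16639 under the leave-one-out gate. The fitted log2 differences (AAV minus vehicle) of the 8 genes ran from -0.23 to 0.40 with a median of 0.12, beside a median of 0.00 over all genes tested. The 95% intervals given below show the size of change that each gene's data still allow. They are those of the member-free gate, whose nuclei were fewer and richer in OPN1SW and CCDC136 than the wider set.

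Of the activation steps, GNAT2 had 1089 and 1495 CPM in the AAV retinas of week 4, and 971 and 1286 CPM in the vehicle retinas. The groups overlapped, and the 95% interval of the log2 difference ran from -0.17 to 0.68 (edgeR, adjusted p = 0.641). PDE6C, the catalytic subunit, had 1139 and 1365 CPM after AAV and 1400.4 and 1193 CPM after vehicle, which also overlapped, with a log2 difference of 0.00 (interval -0.34 to 0.34, adjusted p = 0.996). PDE6H, its inhibitory partner, had 154 and 255 CPM after AAV against 169 and 206 CPM after vehicle. The 2 AAV retinas held both the lowest and the highest PDE6H level of that week, and the log2 difference was 0.19 (interval -0.31 to 0.70, adjusted p = 0.791). GNAT2 and PDE6H were each higher in AAV replicate 2 than in AAV replicate 1 and higher in vehicle replicate 2 than in vehicle replicate 1.

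The channel subunits overlapped between groups at week 4. CNGA3 had 466 and 444 CPM after AAV and 438 and 459 CPM after vehicle, a log2 difference of 0.07 (interval -0.18 to 0.32, adjusted p = 0.857). CNGB3 had 2462 and 2962 CPM after AAV and 2628 and 2398 CPM after vehicle (log2 difference 0.16, interval -0.17 to 0.50, adjusted p = 0.715). Under the leave-one-out gate both AAV retinas were above both vehicle retinas for CNGB3, at 2822 and 3157 against 2812 and 2597 CPM, again without passing the test (adjusted p = 0.543).

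Both shut-off genes were lower in the AAV retinas without overlap and did not pass the test. GRK7, the opsin kinase, had 568 and 569 CPM after AAV and 691 and 693 CPM after vehicle. Its log2 difference was -0.23 ± 0.11 (SE), with an interval of -0.49 to 0.02 (edgeR, adjusted p = 0.439). The leave-one-out gate gave 578 and 606 against 725 and 728 CPM, a log2 difference of -0.24 (adjusted p = 0.332). ARR3 had 2969 and 3174 CPM after AAV and 3988 and 3265 CPM after vehicle, so that the gap between the groups was smaller than that between the vehicle retinas (log2 difference -0.19, interval -0.52 to 0.14, adjusted p = 0.665). Leaving out 1 retina moved the log2 difference of ARR3 from -0.020 without vehicle replicate 1 to -0.34 without vehicle replicate 2.

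OPN1SW had 80.3 and 99.4 CPM in the AAV retinas and 68.5 and 73.6 CPM in the vehicle retinas of week 4 under the member-free gate. These did not overlap, with a log2 difference of 0.40 (interval 0.04 to 0.75, edgeR, adjusted p = 0.330). Under the leave-one-out gate the values were 21.4 and 30.9 against 19.7 and 23.6 CPM and overlapped (log2 difference 0.33, adjusted p = 0.514). In all, 3 of 8 genes did not overlap between the groups of week 4 under each gate, where 43.8% of all genes did not under the member-free gate and 46.6% under the gate with all 8 genes. Leaving out a retina leaves a lone retina in its group, so only the log2 differences under the member-free gate are given. Without AAV replicate 1 the log2 difference was 0.58 for OPN1SW and 0.55 for PDE6H. Without AAV replicate 2 it was 0.18 for OPN1SW and -0.28 for PDE6H.

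**Figure D2:**
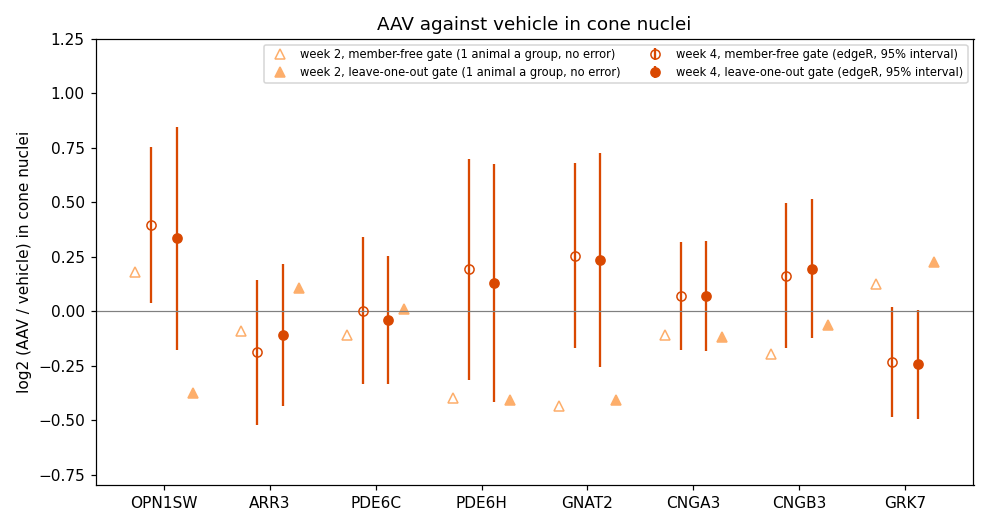
Log2 of AAV over vehicle in cone nuclei for each gene. Circles show the fitted difference at week 4 with its 95% interval (2 against 2 retinas), triangles the ratio of mean CPM at week 2 (both eyes of 1 animal per group, no error), open for the member-free and filled for the leave-one-out gate. Of the 16 intervals only that of OPN1SW under the member-free gate stays above 0, and GNAT2, PDE6H, CNGA3 and CNGB3 lie below 0 at week 2 and above 0 at week 4 under both gates.

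Week 2 held 1 animal per group, so its values carry no test, and both eyes of an animal share that animal. GNAT2 showed the largest gap, at 1049 and 1035 CPM in the eyes of the AAV animal and 1402 and 1415 CPM in those of the vehicle animal, 1.35-fold lower after AAV. The leave-one-out gate gave 1121 and 1080.0 against 1442 and 1483 CPM, 1.33-fold lower. PDE6H had 162 and 148 CPM after AAV and 229 and 179 CPM after vehicle, 1.32-fold lower. CNGA3 had 373 and 392 against 399 and 426 CPM, a smaller gap in the same direction that was also present under the leave-one-out gate.

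GRK7 was the gene that lay higher in the AAV animal under both gates, at 651 and 724 against 616 and 644 CPM under the member-free gate and 734 and 819.9 against 651 and 678 CPM under the leave-one-out gate. CNGB3 (1995 and 2188 against 2460.3 and 2329 CPM) and PDE6C (1217 and 1228 against 1338 and 1303 CPM) were lower in the AAV animal under the member-free gate, and their eyes overlapped under the leave-one-out gate. ARR3 and OPN1SW changed direction with the gate. ARR3 was lower in the AAV animal under the member-free gate, at 3042 and 3044 against 3236 and 3252 CPM, and higher under the leave-one-out gate, at 4145 and 4045 against 3814 and 3803 CPM. OPN1SW was higher under the member-free gate, at 82.6 and 83.6 against 71.1 and 75.7 CPM, and lower under the leave-one-out gate, at 18.8 and 21.2 against 24.8 and 27.1 CPM.

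Under the member-free gate the eyes of the 2 animals did not overlap for 8 of 8 genes (6 lower and 2 higher after AAV), against 53.2% of all genes. Under the leave-one-out gate they did not overlap for 6 of 8 (4 lower and 2 higher), against 57.9% of all genes under the gate with all 8 genes. The gate itself differed between these animals. Of member-free cone nuclei, 89.0% and 92.1% in the AAV eyes held at least 5 UMIs of the 8 genes, against 93.3% and 95.6% in the vehicle eyes. The gate marker CCDC136 had 2755 and 2875 CPM in the AAV eyes and 1737 and 1987 CPM in the vehicle eyes. THRB, another gate marker, went the other way, with 1153 and 1075 CPM in the AAV eyes and 1683 and 1640 CPM in the vehicle eyes. The part of these differences in the week 2 values was not tested.

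Whether the AAV effect in cone nuclei differed between week 4 and week 2 was tested over 6 animals, with the spread taken from the week 4 animals. None of the 8 genes passed by edgeR under either gate, against 0.279% of 14674 genes called under the member-free gate. At an unadjusted edgeR p under 0.05, GNAT2 alone passed under the member-free gate and GRK7 alone under the leave-one-out gate. DESeq2, run under the member-free gate only, called 0. Under the member-free gate the largest difference was that of GNAT2, 0.76 ± 0.32 (SE) on the log2 scale in the positive direction for week 4 minus week 2 (interval 0.07 to 1.45, adjusted p = 0.402). PDE6H followed at 0.68 (interval -0.14 to 1.501, adjusted p = 0.535). Under the leave-one-out gate OPN1SW had the largest, 0.74 (interval -0.09 to 1.57, adjusted p = 0.451), followed by GNAT2 at 0.70 (adjusted p = 0.458). GRK7, which was higher after AAV at week 2 and lower at week 4, differed by -0.31 under the member-free gate (interval -0.75 to 0.14, adjusted p = 0.619). Under the leave-one-out gate it differed by -0.44 (interval -0.86 to -0.02, adjusted p = 0.393). The number of these genes that passed moved with no low-count filter. It also moved without AAV replicate 1 of week 4, which leaves a lone AAV retina in that week.

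OPN1SW was seen in few cones. Among the 34848 cone nuclei gated without OPN1SW, 94.9% had no OPN1SW UMI and 243 (0.697%) had 3 or more. Those few nuclei carried 13.1% to 43.7% of the OPN1SW UMIs of a retina. Relative to nuclei without OPN1SW, they held more CCDC136 in 8 of 8 retinas, with a median log2 difference of 4.11, and less THRB, the thyroid hormone receptor of long-wavelength cone fate, with a median log2 difference of -4.40 over the 7 retinas where any THRB UMI was left. Both are markers of either gate, and nuclei with OPN1SW were deeper (medians of 4233 to 5980 UMIs per retina) than nuclei without it (2256 to 4152 UMIs). Without CCDC136 in the member-free gate, OPN1SW no longer passed the filter on low counts.

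The wider gate read all 7 of the other genes, and a nucleus could pass it through these genes or through CCDC136, so the values of these genes in nuclei with and without OPN1SW are a description. ARR3 was lower in nuclei with OPN1SW in 8 of 8 retinas, at a median of 2411 against 4276 CPM, and its log2 difference ran from -1.28 to -0.68. PDE6C was also lower in 8 of 8 retinas (994 against 1543 CPM, log2 difference -0.91 to -0.35). CNGA3 and CNGB3 were lower in 8 of 8 retinas by smaller amounts, with medians of -0.27 and -0.24. GNAT2 was higher in 7 of 8 retinas with a median of only 0.14, GRK7 was higher in 2 of 8, and PDE6H was higher in 4 of 8. The share of nuclei with 3 or more OPN1SW UMIs was 0.666% and 1.59% in the AAV retinas of week 4 and 0.362% and 0.252% in the vehicle retinas. At week 2 it was 0.471% and 0.811% in the AAV eyes and 0.887% and 0.676% in the vehicle eyes, which overlapped. At a fixed depth of 1000 UMIs, nuclei with any OPN1SW at week 4 made up 1.78% and 2.60% after AAV and 1.54% and 2.22% after vehicle, which overlapped. At week 2 they made up 1.65% and 1.43% in the AAV eyes and 2.13% and 2.15% in the vehicle eyes.

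**Figure D3:**
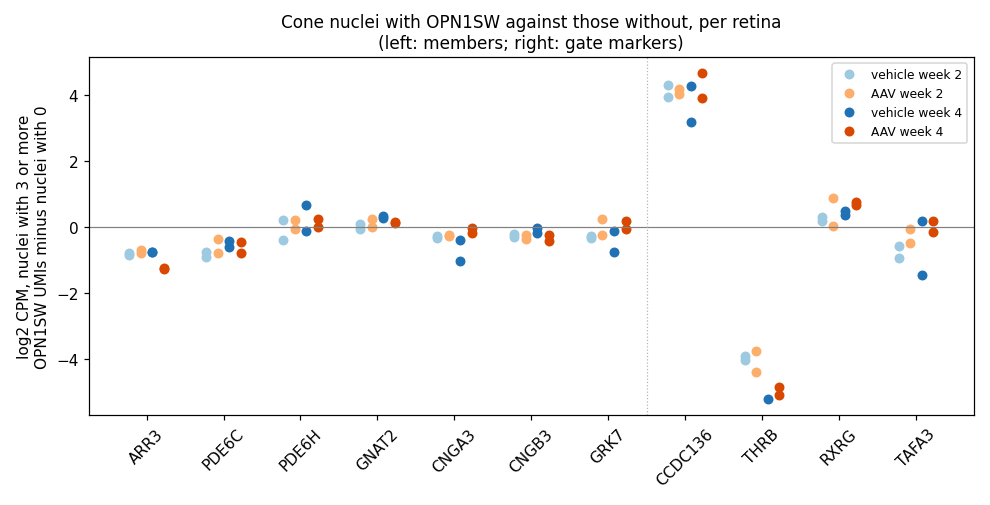
Log2 CPM of cone nuclei with 3 or more OPN1SW UMIs minus that of cone nuclei with 0, for 7 genes of the pathway (left) and the 4 markers of the member-free gate (right), 1 point per retina. ARR3 and PDE6C lie below 0 in every retina, and CCDC136 and THRB lie more than 3 above and below 0. The vehicle week 4 retina with no THRB UMI in OPN1SW nuclei has no THRB point.

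In the AAV retinas, 4.02% to 8.46% of cone nuclei per retina held an EGFP UMI, and no cone nucleus of a vehicle retina did. ARR3, PDE6C, PDE6H, CNGA3 and CNGB3 were lower in EGFP-positive than in other cone nuclei in 4 of 4 AAV retinas. The week 2 retinas among them are both eyes of 1 animal, and the share of all genes with this pattern was not counted. The log2 differences were small, with medians of -0.10 for ARR3, -0.14 for PDE6C, -0.19 for PDE6H, -0.18 for CNGA3 and -0.08 for CNGB3. GNAT2 and GRK7 were higher in 1 of 4 retinas and OPN1SW in 2 of 4. EGFP-positive nuclei were deeper, at medians of 3641 and 4559 UMIs at week 2 and 4105 and 4647 UMIs at week 4, against 2843, 4188, 2987 and 4006 UMIs in the other cone nuclei of the same retinas. The part of depth in these differences was not tested.

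Of 32 other phototransduction genes listed in the files and tested in cone nuclei, 1 rose and 2 fell at week 4 by edgeR, against 1.42% of all genes called in either direction, with a median log2 difference of 0.00. RDH8, a retinol dehydrogenase of the visual cycle, rose from 62.2 and 51.4 CPM after vehicle to 105 and 97.6 CPM after AAV (log2 difference 0.88 ± 0.15 SE, adjusted p = 0.0206). GNB3, the beta subunit of cone transducin and so the partner of GNAT2, fell from 470 and 462 to 299 and 295 CPM (-0.60 ± 0.11, adjusted p = 0.0347). PDE6G, the inhibitory subunit of rod phosphodiesterase, fell from 50.3 and 62.2 to 30.3 and 25.4 CPM (-0.97 ± 0.17, adjusted p = 0.0282). At week 2, with 1 animal per group and no test, RDH8 and GNB3 lay in the opposite direction under the member-free gate. RDH8 had 57.8 and 56.8 CPM in the AAV eyes and 78.0 and 69.5 CPM in the vehicle eyes. GNB3 had 430 and 454 against 333 and 376 CPM. PDE6G overlapped, as did RDH8 under the gate with all 8 genes. At week 4 the same 3 genes passed under the leave-one-out gate and with DESeq2. In cone nuclei low in rod UMIs RDH8 alone passed, GNB3 did not pass without vehicle replicate 1 or with the gate without CCDC136, and none passed without vehicle replicate 2 or in a fit of 6 animals. Under the leave-one-out gate none passed without vehicle replicate 1, and PDE6G alone passed without vehicle replicate 2.

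Several other genes of the list did not overlap between groups without passing. VSNL1, a calcium sensor, had 2.42 and 1.00 CPM after AAV and 4.95 and 7.5001 CPM after vehicle (adjusted p = 0.138). PRPH2, an outer segment disc protein, had 408 and 485 against 329 and 342 CPM (adjusted p = 0.162). TULP1 had 2344 and 2120.4 against 2932 and 2876 CPM, CACNA1F, the calcium channel of the photoreceptor synapse, 153 and 143 against 186 and 218 CPM, and RDH12 31.4 and 27.2 against 38.0 and 44.2 CPM. Of 32 genes, 17 did not overlap, 7 higher and 10 lower after AAV, a share near the 43.8% of all genes.

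Of 12 cone fate genes tested, 1 passed as higher and 0 as lower, against 1.42% of all genes called in either direction, with a median log2 difference of 0.23. The levels of 8 of the 12 did not overlap between groups, 7 higher and 1 lower after AAV, against 43.8% of all genes without overlap in either direction. Among these 8 were RXRG (higher) and THRB (lower), gate markers whose UMIs helped to choose the nuclei. The gene that passed was RXRG, a nuclear receptor that was itself a gate marker, at 287 and 226 CPM after AAV and 137 and 171 CPM after vehicle (log2 difference 0.79 ± 0.14 SE, adjusted p = 0.0316). Its own UMIs helped to choose the nuclei, and no gate without it was run, so this value is not an independent result. It did not pass under the leave-one-out gate (0.67, adjusted p = 0.0810), with 6 animals, in cone nuclei low in rod UMIs, with the gate without CCDC136 or without vehicle replicate 1. OTX2 had 107 and 98.2 CPM after AAV against 75.3 and 68.1 CPM (adjusted p = 0.0871) and NEUROD1 138 and 155 against 116 and 97.5 CPM (adjusted p = 0.162). CRX had 198 and 189 against 157 and 177 CPM, SALL3 89.4 and 87.2 against 79.2 and 74.7 CPM, RORA 398 and 382 against 370.03 and 356 CPM and RORB 370 and 346 against 345 and 335 CPM. THRB, also a gate marker, was the gene of this list that was lower without overlap, at 1144 and 1246 against 1491 and 1422 CPM (adjusted p = 0.486).

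The rod counterparts of the 8 genes were read in the same cone nuclei. Of 8 tested, PDE6G fell as above and none rose, against the same 1.42% of all genes, with a median log2 difference of -0.18. SAG, rod arrestin, had 4446 and 3818 CPM after AAV against 5108 and 6147 CPM after vehicle (adjusted p = 0.258), and PDE6B had 24.7 and 25.2 against 35.7 and 28.9 CPM. GNAT1, rod transducin, was higher, at 69.8 and 66.2 against 62.5 and 57.8 CPM (adjusted p = 0.558). The 10 rod markers, PDE6G among them, together made up 5037 and 4391 CPM of cone nuclei in the AAV retinas and 5786 and 6782 CPM in the vehicle retinas of week 4. Most of this sum was SAG, and the other 9 markers made up 591 and 573 CPM after AAV and 678 and 634 CPM after vehicle. Where the rod-marker UMIs in cone nuclei came from was not tested, nor was their part in the fall of PDE6G.

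Outside cones, the 8 genes were read in nuclei of classes that should lack them, where free RNA in the droplets is one known source of UMIs. In rod, bipolar, amacrine and Muller nuclei the median level of a gene was 0.452% to 2.31% of its level in the cone nuclei of the same retina. The genes did not keep a fixed ratio. In rod nuclei ARR3 stood at 1.31% to 3.33% of its cone level and GRK7 at 1.26% to 2.54%, whereas CNGB3 stood at 0.168% to 1.497%. ARR3, PDE6C, GNAT2, CNGA3 and GRK7 were each above CNGB3 on this scale in 8 of 8 retinas. In amacrine nuclei GRK7 was the highest of the 8 genes in 5 of 8 retinas. OPN1SW rested on 72 UMIs over all 76454 rod nuclei, so that its order could not be resolved at this depth.

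Some of these genes passed the week 4 test in other classes, also under the leave-one-out gate. ARR3 fell in all 4 classes tested, rod, bipolar, amacrine and Muller nuclei. In rod nuclei it had 50.9 and 59.9 CPM after AAV and 106 and 134 CPM after vehicle, a log2 difference of -1.05 ± 0.16 (SE, edgeR, adjusted p = 0.0186). CNGB3 also fell in rod nuclei, from 20.1 and 38.9 to 10.1 and 5.30 CPM (log2 difference -1.87 ± 0.39, adjusted p = 0.0382). These were 2 of 8 genes, against 3.8% of all genes called lower in rod nuclei. Without vehicle replicate 2, which had the highest rod levels of ARR3 and CNGB3, none of the 8 genes passed in rod nuclei (ARR3 -0.87, adjusted p = 0.0827). CNGB3 also did not pass with no mitochondrial filter (-1.71, adjusted p = 0.0616). Rod nuclei were deeper after AAV, at medians of 1867 and 2078 UMIs against 1455 and 1480 UMIs after vehicle.

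In bipolar nuclei ARR3 fell from 62.8 and 63.6 to 34.7 and 25.5 CPM (log2 difference -1.05 ± 0.15 SE, adjusted p = 0.0207). It was 1 of 7 genes tested, against 0.914% of all genes called lower. ARR3 did not pass there without vehicle replicate 1 or vehicle replicate 2, where its log2 difference was -1.06 and -1.05. In amacrine nuclei ARR3 fell from 39.6 and 45.8 to 25.4 and 12.1 CPM (-1.16 ± 0.26, adjusted p = 0.0454), 1 of 6 genes tested against 0.804% of all genes called lower. Without AAV replicate 1 its log2 difference was -1.83 and without AAV replicate 2 it was -0.74. DESeq2 did not call it there (adjusted p = 0.366), and its adjusted p ran from 1.96e-11 to 0.366 over 7 alternatives. Bipolar nuclei were also deeper after AAV (3195.5 and 3596.5 against 2503 and 2325.5 UMIs), as were amacrine nuclei (5512 and 6079 against 4437 and 4319.5 UMIs), and the part of depth in the falls of these 3 classes was not tested. CNGB3 and GRK7 in amacrine nuclei differed by 0.03 and 0.02 on the log2 scale and overlapped between groups.

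In Muller nuclei ARR3 fell from 34.2 and 55.3 to 9.27 and 6.93 CPM (log2 difference -2.41 ± 0.33 SE, adjusted p = 0.00141), and passed under all 7 alternatives. The AAV values rested on 25 and 8 UMIs. GNAT2 fell from 8.71 and 20.8 to 3.64 and 4.27 CPM (-1.93 ± 0.54, adjusted p = 0.0393). CNGA3 also passed (log2 difference -2.82 ± 0.77, adjusted p = 0.0367) on 3 UMIs in the AAV retinas together against 52 in the vehicle retinas, a ratio of CPM of 0.141 with a counting interval of 0.0282 to 0.437. AAV replicate 2 had 0 CNGA3 UMIs, and the gene passed the filter on low counts through the vehicle retinas, so that its call is no support for a fall. The share of all genes called lower was 8.5% in Muller nuclei, and nothing is read from the number of the 8 genes called in this class of 567 and 233 nuclei after AAV and 2120 and 1999 after vehicle. These nuclei were deeper after AAV, at medians of 4647 and 4913 UMIs against 2186 and 1934 UMIs after vehicle, and the part of depth in the falls was not tested. GNAT2 did not pass without AAV replicate 1, AAV replicate 2 or vehicle replicate 2, where its log2 difference was -1.78, -2.01 and -1.18. CNGA3 passed in 2 of 7 alternatives.

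**Figure D4:**
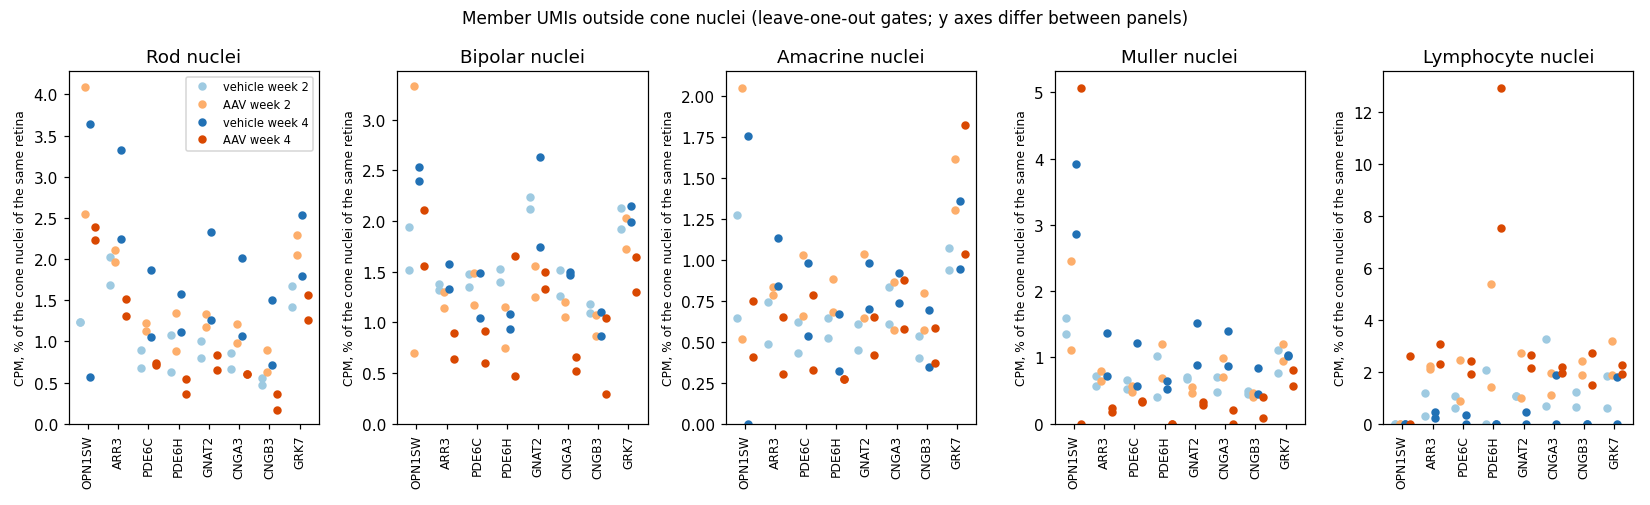
CPM of each gene in the nuclei of 5 other classes as a percentage of its CPM in the cone nuclei of the same retina, under the leave-one-out gate (y axes from 0, different in each panel), 1 point per retina, coloured by group. In rod and Muller nuclei the AAV retinas of week 4 lie at the bottom for most genes, and PDE6H in lymphocyte nuclei of the 2 AAV week 4 retinas stands at 12.9% and 7.53%.

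Summed over every barcode of a retina, before the mitochondrial filter, ARR3, PDE6C, CNGA3, CNGB3 and GRK7 were lower in both AAV retinas of week 4 and higher in both eyes of the AAV animal of week 2. Of the 16639 genes tested in cone nuclei, 30.7% were lower without overlap in the same sums at week 4 and 45.8% were higher without overlap at week 2. ARR3 made up 444 and 499 CPM of all UMIs after AAV and 725 and 631 CPM after vehicle at week 4, against 593 and 621 CPM after AAV and 479 and 475 CPM after vehicle at week 2. GRK7 made up 69.3 and 77.6 against 115 and 113.05 CPM at week 4, and 109 and 129.98 against 83.5 and 86.4 CPM at week 2. PDE6C went from 219 and 225 against 183 and 184 CPM at week 2 to 152 and 184 against 239 and 227 CPM at week 4. CNGB3 had 335 and 384 against 324 and 302 CPM at week 2 and 311 and 378 against 420.4 and 389 CPM at week 4. CNGA3 had 61.2 and 66.9 against 55.9 and 60.7 CPM at week 2 and 56.3 and 57.0 against 69.1 and 79.8 CPM at week 4. GNAT2 was lower in the AAV animal at week 2 (163 and 166 against 179 and 181 CPM) and overlapped at week 4 (128 and 188 against 154 and 213 CPM). PDE6H and OPN1SW overlapped in both weeks. CPM also depend on the total of UMIs. At week 4 this was 160693746 and 163192793 after AAV and 129653638 and 121544835 after vehicle. As raw UMIs, which depend on depth, ARR3, PDE6C, CNGA3 and CNGB3 overlapped between the groups of week 4, and GRK7 was lower after AAV. In such sums fewer cones, less RNA per cone and more RNA from other nuclei cannot be told apart. The part of these in the lower levels of free RNA was not tested.

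Cone nuclei made up a smaller share of nuclei in the AAV retinas of week 4. Under the member-free gate the share was 2.23% and 2.43% after AAV and 2.67% and 3.35% after vehicle, a difference of -0.683 percentage points. The exact two-sided permutation test gave p = 0.333, which is the smallest p that 2 against 2 retinas allow. Under the gate with all 8 genes the shares were 8.06% and 8.20% against 10.7% and 11.6%. At week 2 the 2 gates went opposite ways, with 2.67% and 2.69% against 3.05% and 3.32% under the member-free gate and 11.11% and 11.08% against 9.40% and 10.1% under the gate with all 8 genes. Lymphocyte nuclei, which enter the denominator, made up 2.71% and 2.26% of nuclei in the AAV retinas of week 4 and at most 0.0755% in the vehicle retinas of that week. Other classes also differed at week 4 under the member-free gate. Bipolar nuclei made up 6.06% and 6.48% after AAV against 9.41% and 9.46%, and Muller nuclei 0.733% and 0.335% against 3.55% and 3.67%. Amacrine nuclei were lower too, microglia nuclei were higher, and rod nuclei overlapped. A lower share was thus not particular to cones. Nuclei that took no class also entered the denominator.

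PDE6H stood apart from the other 7 genes in those lymphocyte nuclei. It had 56 UMIs in 1295 nuclei and 48 UMIs in 1044 nuclei of the AAV retinas of week 4, or 20.5 and 19.4 CPM. This was 12.9% and 7.53% of its cone level, whereas ARR3, PDE6C, GNAT2, CNGA3, CNGB3 and GRK7 stood at 1.49% to 3.06% of theirs. ARHGDIB, a leukocyte gene that shares 5571 bases with PDE6H on the opposite strand, had 157 and 167 CPM in the same nuclei and 1.053 and 1.587 CPM in cone nuclei. Microglia nuclei of the same retinas had 53.7 and 41.0 CPM of ARHGDIB and 8.32 and 5.68 CPM of PDE6H. Whether UMIs of ARHGDIB were counted as PDE6H was not tested, and the strand setting is not given in the sources used here. The shared stretch is that of the RefSeq annotation, whereas the counted genes carry Ensembl identifiers.

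As a description, the 5 other named genes whose level over classes and retinas was most like that of the 8 genes were GOT2, SKP2, DGAT2L6, TEX28 and ITGB7. Pearson's r of log2(CPM + 1) with the mean of the 8 genes was 0.93 for GOT2, 0.89 for SKP2 and 0.89 for DGAT2L6 over 72 sums (9 classes in 8 retinas), which share libraries. GOT2, the mitochondrial aspartate aminotransferase, had a median of 578 CPM in cone nuclei and 47.9 CPM over the other classes. TEX28 had 5.12 CPM in cone nuclei against a median of 0 elsewhere, and ITGB7 had 81.2 against 3.46 CPM.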

How the data were processed

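Nuclei from frozen retinas were sorted on DAPI and captured on 10x lanes. UMI counts were deposited as Cell Ranger 8.0.0 wrote them, for filtered barcodes of 4 lanes per retina and without cell types; the reference was the pig genome Sscrofa11.1 plus EGFP. Nuclei were filtered on mitochondrial share with a mixture model at a posterior of 0.75. A nucleus took the class whose marker list was most enriched over its expected UMIs (pseudocount 1), with at least 3 UMIs of that list and at least 2 times the enrichment of the next of 12 lists. Of 8 cone gate markers 4 were listed by symbol. GNGT2, GUCA1C and the opsin genes OPN1LW and OPN1MW were not, so that OPN1SW was the sole cone opsin read. No doublet caller was run. Levels are CPM, scaled to 1000000 UMIs. The counts were summed per retina and class, since nuclei are not replicates. edgeR 4.0.16 (quasi-likelihood, TMM, filterByExpr) compared 2 AAV with 2 vehicle retinas at week 4, with Benjamini-Hochberg adjustment over all genes and a threshold of 0.05. DESeq2 1.42.0 was an alternative. The script was tested on simulated data. Intervals of levels are exact Poisson at 95% and cover counting error only, and totals of 121544835 to 173614051 UMIs per retina set that precision. Alternatives changed the count model, filters, gates, samples and retinas. Cone nuclei low in rod UMIs were those with at most 16 UMIs of the rod list, the median, without scaling for depth. That set therefore also favoured shallow nuclei, and 10822 genes were tested in it against 12984 in the main set. Genes named beside the 8 members are those of 3 lists past the threshold or without overlap, up to 8 a list by fold, and the 5 most correlated genes. The members, lists and tests were chosen with earlier results of these data known. A gene of the rod list is not reported here.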

Additional observations from a re-analysis of the deposited data

Results flagged for a closer look

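Values of 2 genes stood above the vehicle retinas in a class that entered no comparison, lymphocyte nuclei. ARR3 had 119 and 91.4 CPM there in the AAV retinas of week 4, and CNGB3 had 76.6 and 47.2 CPM, with counting intervals above those of both vehicle retinas. This class held 1298 and 1045 nuclei in the AAV retinas (gated without ARR3), against 33 and 28 nuclei in the vehicle retinas, with medians of 6605 and 6139 UMIs per nucleus against 1517 and 1587 UMIs in the AAV retinas (gated with all 8 genes). The levels were 3.06% and 2.31% of the cone level for ARR3 and 2.72% and 1.49% for CNGB3. ARHGDIB, the leukocyte gene, had 429 and 414 UMIs in this class in the AAV retinas of week 4 (gated without PDE6H). The vehicle retinas had 0 in totals of 230219 and 208481 UMIs. Whether the class held like cells in both groups was not tested, nor was the difference in ARR3 and CNGB3.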

How the results depend on the processing

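No paired analysis was possible because the labels give no number that ties a retina of one group to a retina of another. In 220 alternative values, 167 kept the direction and the side of the threshold or stayed within 1.5 times the main count. The number of the 8 genes called in cone nuclei at week 4 was 0 under every alternative except without AAV replicate 1, which leaves a lone AAV retina. Log2 differences of 5 of the 8 genes, none of which had passed the test, turned sign in 11 cases. PDE6C went to -0.041 with the leave-one-out gate, -0.0038 with a stricter gate, -0.0019 with nuclei of 1000 UMIs or more and -0.055 with 6 animals, and ranged from -0.18 to 0.17 over retinas left out. With 6 animals PDE6H went to -0.035 and CNGA3 to -0.0085. Over retinas left out PDE6H ranged from -0.28 to 0.55, GNAT2 from -0.044 to 0.51 and CNGB3 from -0.026 to 0.34, each lowest without AAV replicate 2 and highest without AAV replicate 1, as was OPN1SW (0.18 to 0.58). The 3 other phototransduction genes called became 5 with no low-count filter, where 341 of 25859 genes were called higher and 466 lower. They became 1 in cone nuclei low in rod UMIs (50 of 10822 genes higher and 142 lower). With 6 animals they became 0 (59 of 14674 genes higher and 1 lower). The count also moved without AAV replicate 1 or vehicle replicate 2, each of which leaves a lone retina in its group. In the test between weeks 1 of the 8 genes (GNAT2) passed with no low-count filter, where 161 of 27617 genes were called higher and 338 lower. In rod nuclei 5 of the 8 genes passed with DESeq2, where 841 of 18126 genes were called higher and 756 lower. With no low-count filter 7 passed, where 1560 of 28979 genes were called higher and 1240 lower. With no mitochondrial filter 1 passed, where 721 of 18293 genes were called higher and 608 lower. The count also moved without vehicle replicate 1 or vehicle replicate 2, each of which leaves a lone vehicle retina. In bipolar nuclei 3 passed with no low-count filter, where 656 of 28976 genes were called higher and 467 lower. The count moved whichever retina was left out. In amacrine nuclei 0 passed with DESeq2, where 288 of 18274 genes were called higher and 115 lower. The count also moved without AAV replicate 1 or vehicle replicate 1. In Muller nuclei 5 passed with no low-count filter, where 1406 of 26433 genes were called higher and 1916 lower. There too the count moved whichever retina was left out. The causes were not tested. The lower share of cone nuclei at week 4 kept its direction under all 5 alternatives. With 2 retinas per group the intervals are wide, and the confounded batch sets a limit that no alternative here addresses.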
